A study of Danio rerio with 15 samples.

Results

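The untreated whole zebrafish larva at 120 hours after fertilization was described from 3 control libraries of 15 in the series. The members were the libraries labelled as controls, chosen by that label and not by any measured value. All 3 came from whole bodies of the AB wild type strain at the same stage, with no PFOS (perfluorooctanesulfonic acid), the fluorinated surfactant given to the remaining groups. The series measured RNA by sequencing in 5 groups of 3 libraries, and only the untreated group is used here, so no dose is compared. Neither the number of larvae per library nor whether the 3 libraries are separate clutches is stated, so the spread between them may be partly technical. With 1 group there was no contrast to test, and ratios taken in 3 libraries cannot go below an exact two-sided p of 0.25, so means are given with the SD over 3 libraries and no p-value is given.

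At this stage a zebrafish larva has hatched, swims, hunts and digests food. Its trunk is mostly fast skeletal muscle, its liver, pancreas and gut are at work, its eye forms images, and its skin carries the ionocytes that exchange salts with water. Blood is still made of larval red cells that carry embryonic globins. The ancestors of teleost fish duplicated their genome, and many zebrafish genes are therefore present as a pair of copies whose symbols end in a and b.

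The libraries held 13447347, 15076888 and 13534274 estimated counts. Of 32520 genes in the table, 19176 had at least 1 CPM (counts scaled to a common library total) in all 3 libraries, and 6766 were listed at 0 in all of them. A count of 0 allows a level of up to 0.223, 0.199 and 0.222 CPM in the 3 libraries, which is 3 counts of each total and covers counting error only. Protein-coding genes took 99.3%, 99.3% and 99.2% of counts. Long intergenic RNA genes took 0.391% ± 0.0347 and processed transcripts 0.165% ± 0.00460. Of 1966 genes annotated as ribosomal RNA outside the mitochondrion, 2 had any count, and 1 of 434 microRNA genes did. The most abundant long intergenic RNA genes were CR383676.2 (724, 816 and 897 CPM) and CT027638.1 (536, 593 and 932 CPM), both with clone-based symbols. The next was oip5-as1, at 146, 169.8 and 149 CPM. The ribosomal protein gene rps20 is filed as a processed transcript in the deposited annotation, so its 442, 406 and 457 CPM stood outside the protein-coding share.

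Counts were concentrated in few genes. The 10 most abundant genes of each library held 11.5%, 11.5% and 10.7% of its counts, and the first 100 held 31.8%, 31.3% and 30.7%. The first 25% of each library was reached with 52, 53 and 57 genes, 50% of it with 505, 544 and 556 genes, and 75% with 2949, 3037 and 3085 genes. On the scale of RPKM (CPM divided by the effective transcript length in kilobases, which can differ between libraries), 50% of the summed level lay in 139, 145 and 146 genes.

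Fast-muscle and mitochondrial transcripts led the ranking per length. Of the 20 genes of highest mean RPKM, 9 belonged to the fast-muscle list and 6 to the mitochondrial genome. The highest was actc1b, an alpha actin of striated muscle on chromosome 17 (117024 to 125091, minus strand, on a build that the labels and headers leave unnamed), at 20318, 19214 and 16751 RPKM. The parvalbumins pvalb1 and pvalb2, calcium-binding proteins that help fast fibres relax, followed at 14349, 14722 and 17491 RPKM and 12869.8, 12923 and 13039 RPKM. Replicate 3 was the lowest of the libraries for actc1b and the highest for pvalb1, while pvalb2 differed by less than 2% between them. The tropomyosin gene tpma, whose product lies along the actin filament, had 11058, 10761 and 9432 RPKM. By CPM it was highest in replicate 2 (6831, 6951 and 5804 CPM), because its effective length differed between libraries. The essential myosin light chain mylz3 had 5378, 5189 and 4918 RPKM and the regulatory light chain mylpfa had 4181, 5039 and 5321 RPKM. The fast troponin T gene tnnt3b, part of the calcium switch of the thin filament, had 4980.1, 5045 and 4626 RPKM. The muscle creatine kinase ckma, which buffers ATP in contracting fibres, had 4441, 3598 and 3759 RPKM.

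Outside muscle, the cytochrome c oxidase subunits of the mitochondrial genome mt-co1, mt-co2 and mt-co3 averaged 10749 ± 525, 10324 ± 847 and 9703 ± 419.9 RPKM (SD, n = 3 libraries, as for all means below). The ATP synthase subunit mt-atp6 averaged 8407 ± 676 RPKM and the cytochrome b gene mt-cyb 5054 ± 487 RPKM. The elongation factor eef1a1l1, which brings aminoacyl-tRNA to the ribosome, had 8853, 7914 and 8109.9 RPKM. The other non-muscle genes among the first 20 were prss59.2, a trypsin of the exocrine pancreas (4824, 3623 and 4405 RPKM), slc25a5, the ADP/ATP carrier of the inner mitochondrial membrane (3974, 4115 and 3774 RPKM), apoa2, a lipoprotein component made in the liver (3295, 4260.0 and 3499 RPKM), and actb2, a cytoplasmic actin (3633, 3592 and 3505 RPKM). The remaining entry, the ATP synthase subunit mt-atp8, is listed at 16638, 14376 and 13777 RPKM, but the length it was divided by works out at 2.78 bases. Its 46.2, 39.0 and 38.3 CPM put it at rank 4083 by share of reads, so its RPKM says little about its level.

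**Figure D1:**
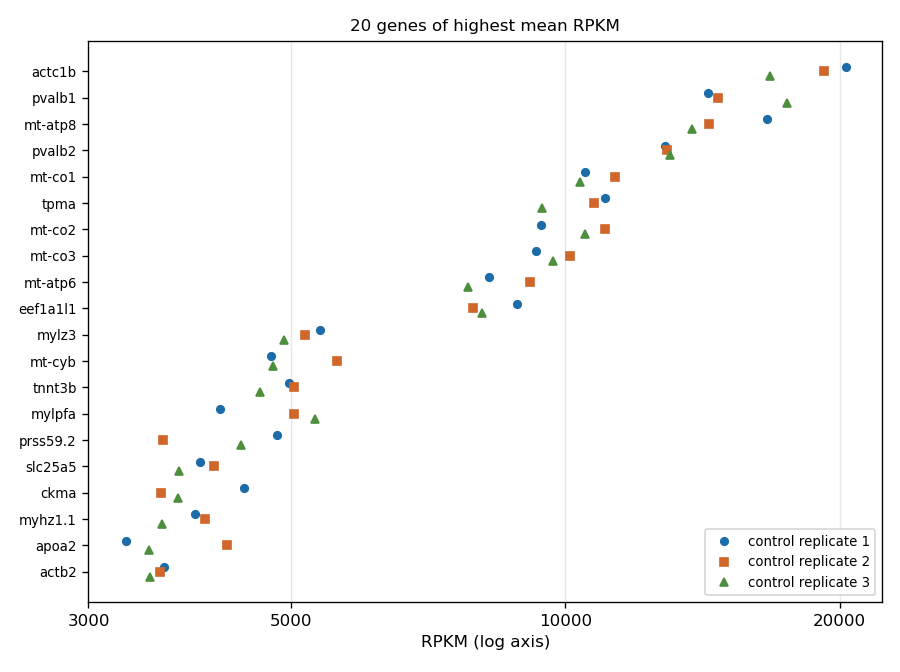
RPKM on a log axis in the 20 genes of highest mean RPKM, with 1 symbol for each of the 3 control libraries. Muscle genes and mitochondrial genes take 15 of the 20 places, and the order of neighbouring genes often differs between libraries. The value of mt-atp8 rests on a length of 2.78 bases.

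The ranking by share of reads, which favours long transcripts, was led by the fast myosin heavy chain myhz1.1 on chromosome 5 (32298624 to 32309129, minus strand), at 22544, 23044 and 20717 CPM. It was followed by actc1b (22488, 21138 and 18574 CPM), mt-co1 (13709, 14724 and 13528 CPM) and eef1a1l1 (13350.2, 11891 and 12223 CPM). The paralogous heavy chain myhz1.2 had 9475, 10291 and 7552 CPM, lowest in replicate 3. The calcium pump of the sarcoplasmic reticulum of fast fibres, atp2a1, had 8198, 8733 and 8116 CPM. The rest of the first 10 were tpma, pvalb1, pvalb2 and mylpfa. Of the 20 highest genes by RPKM, 14 were also among the 20 highest by CPM.

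Shares by organ were taken as the percent of a library's counts in 28 lists of organ and cell-type markers. A list's share depends on which genes it names, and in whole larvae fewer cells of a type and less RNA per cell cannot be told apart. The 928 genes of the lists together took 26.4%, 25.8% and 26.2% of counts. A further 15.4% ± 0.255 went to general classes, such as ribosomal proteins and the mitochondrial genome, and 58.4% ± 0.393 to genes in neither. Each of the 28 lists had members of at least 1 CPM in all 3 libraries.

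**Figure D2:**
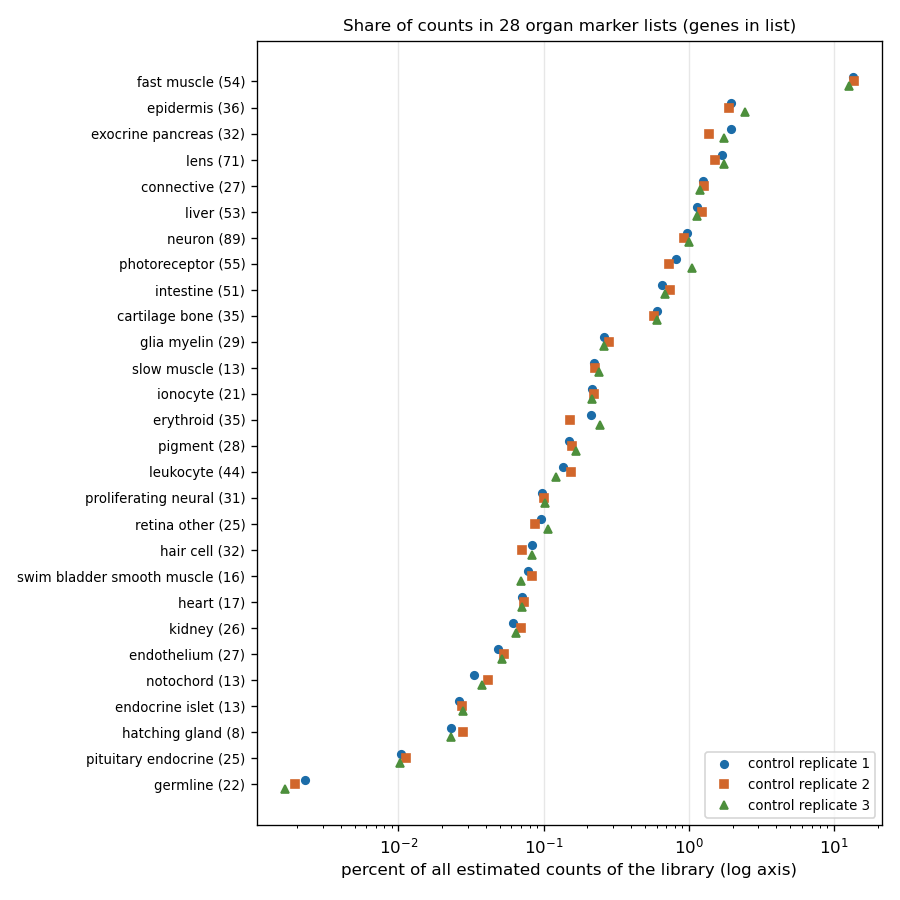
Percent of each library's estimated counts (log axis) in 28 organ marker lists, ordered by mean, with the number of genes of the list in brackets and 1 symbol for each control library. Fast muscle lies at 12.7% to 13.6%, at least 5 times any other list in each library. Several lists are lowest in replicate 2, among them exocrine pancreas, photoreceptors, erythroid cells, lens, epidermis, neurons and cartilage and bone.

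Fast muscle was the largest list, with 13.6%, 13.6% and 12.7% of counts in 54 genes, all of which had at least 1 CPM in every library. Slow muscle took 0.230% ± 0.00916 in 13 genes, led by myl13, a myosin light chain (337, 344 and 356 RPKM), myl10, a further light chain (248, 271 and 302 RPKM), and smyhc1, the main slow myosin heavy chain (208, 203 and 218 RPKM). Heart genes took 0.0719% ± 0.00115. The highest of them were the cardiac actin actc1a (325, 270.2 and 271 RPKM), which other muscle also uses, the sarcomere protein mybpc3 (79.9, 108 and 90.1 RPKM) and the light chain myl7 (28.2, 34.6 and 38.0 RPKM).

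Muscle families differed in how far 1 member led. Of the summed RPKM of 6 alpha actin genes, actc1b took 92.3% ± 0.68, acta1b 4.67% ± 0.49 and the higher of both actc1a entries 1.42% ± 0.11. Of 17 sarcomeric myosin heavy chains, the higher myhz1.1 entry took 52.6% ± 0.64, myhz1.2 21.5% ± 2.03, myhz2 11.7% ± 1.36, myhz1.3 7.61% ± 0.28 and smyhc1 2.87% ± 0.30. The symbols myhz1.1, actc1a and smyhc2 are each held by 2 genes, and no source used here says how reads were shared between copies of a gene, so splits among close copies are uncertain. Strand use in counting is not given either, so reads of genes that overlap on opposite strands cannot be told apart. Of 9 parvalbumins, pvalb1 took 51.4% ± 2.5 and pvalb2 43.1% ± 2.27. The next were pvalb4 (957, 1244 and 1065 RPKM), pvalb7, known from cerebellar neurons (317, 273 and 329.8 RPKM), and pvalb8, a hair-cell marker (108, 113 and 129.8 RPKM). The lowest were pvalb5 (40.1, 36.9 and 52.1 RPKM), pvalb9 (39.3, 45.4 and 35.0 RPKM), pvalb3 (35.4, 32.9 and 36.1 RPKM) and pvalb6 (37.6, 29.5 and 36.7 RPKM).

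**Figure D3:**
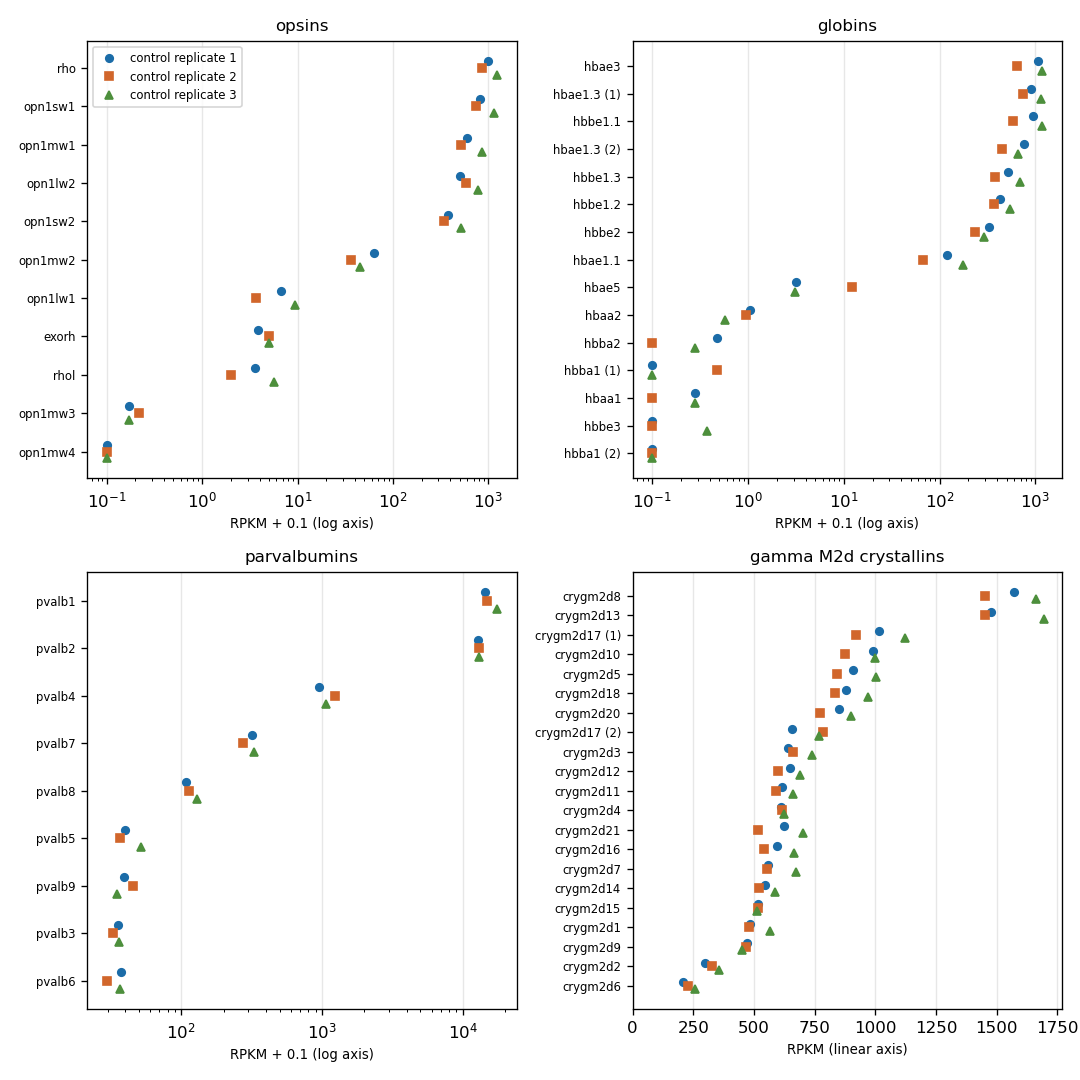
RPKM of every member of 4 gene families (opsins, globins and parvalbumins on log axes with 0.1 added, gamma M2d crystallins on a linear axis), with 1 symbol for each control library; symbols held by 2 genes are numbered. In the first 3 families a few members lie orders of magnitude above the rest, while all 21 gamma M2d crystallins lie between 206 and 1695 RPKM.

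Protein synthesis and respiration formed the next large blocks. The 79 ribosomal protein genes, all above 1 CPM, took 5.998%, 5.61% and 5.70% of counts and 15.6% ± 0.316 of summed RPKM. They filled 44 of the 100 highest places by RPKM, led by rps2 (3776, 3405 and 3334 RPKM), rps9 (3267, 2866 and 2952 RPKM) and rpl6 (3125, 2960.4 and 2857 RPKM). The 37 genes of the mitochondrial genome took 4.01%, 4.398% and 4.03% of counts and 9.32% ± 0.400 of summed RPKM. The RPKM share is raised by mt-atp8, which enters it at a mean of 14930 RPKM over a length of 2.78 bases. All 22 mitochondrial tRNA genes were listed at 0, and the complex I subunit mt-nd6, the only protein encoded on the other strand of that genome, had 12.9, 9.42 and 8.13 CPM against 2269, 2333 and 2129 CPM for its neighbour mt-nd5. Translation factors took 2.90% ± 0.134, glycolysis enzymes 1.34% ± 0.0572, nuclear genes of oxidative phosphorylation 1.07% ± 0.0933 and proteasome subunits 0.188% ± 0.00631.

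The skin was the next organ, with 1.96%, 1.90% and 2.42% of counts and the highest share in replicate 3. Keratins made up most of it. The type I keratin cyt1 had 2479, 3096 and 4563 RPKM, highest in replicate 3, and with a corrected CV (defined below) of 30.3% it was among the variable genes. The next were krt91 (2192, 1721 and 2405 RPKM), the type II keratin krt4 of the outer layer (1657, 1769 and 2039.8 RPKM), cyt1l (1517, 1209.7 and 2054 RPKM) and krt5, a keratin of the basal layer (1092, 786 and 1104 RPKM). Among the other type I keratins, krt92 had 492, 458 and 486 RPKM, krt97 419, 458 and 485 RPKM, krt15 358, 338 and 382 RPKM and krt17 293, 185 and 212 RPKM. The keratin list also holds icn and icn2, the calcium-binding ictacalcins of the S100 family, which had 994, 1159 and 1238 RPKM and 217, 242 and 285 RPKM. Of its 25 genes, 24 had at least 1 CPM in all libraries. Ionocytes, the salt-transporting cells of the skin and gills, took 0.218% ± 0.00472, led by atp1a1a.4 (242, 277 and 268 RPKM), a sodium pump subunit.

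All 9 alpha subunit genes of the sodium pump had at least 1 RPKM in each library. In the atp1a1a cluster, atp1a1a.4 was followed by atp1a1a.1 (232, 239 and 237 RPKM), atp1a1a.2 (75.4, 61.2 and 65.6 RPKM), atp1a1a.3 (31.5, 33.6 and 26.7 RPKM) and atp1a1a.5 (7.25, 12.06 and 7.88 RPKM). The separate gene atp1a1b had 89.5, 100.01 and 96.7 RPKM, the neuronal subunits atp1a3a and atp1a3b had 99.4, 88.6 and 92.5 RPKM and 41.4, 42.7 and 49.8 RPKM, and atp1a2a, known from muscle, had 27.2, 46.8 and 31.9 RPKM.

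The exocrine pancreas took 1.95%, 1.38% and 1.75% of counts. Trypsins and chymotrypsins, secreted as inactive precursors that digest protein in the gut, led the list. After prss59.2 came the chymotrypsinogen ctrb1 (3833, 3005 and 3755 RPKM), the trypsin prss1 (3535, 2506 and 3255 RPKM), its relative prss59.1 (3366, 2029 and 2747 RPKM) and the elastase cela1.6 (2936, 2210.3 and 2524 RPKM). All of these were lowest in replicate 2. The other elastases were ela2 (1489, 766 and 1263 RPKM), ela2l (1364, 774 and 1118 RPKM), ela3l (969, 649 and 929 RPKM) and cela1.4 (49.2, 43.5 and 43.0 RPKM), and both entries named cela1.5 had 52.8, 33.9 and 44.8 RPKM and 16.1, 6.45 and 12.14 RPKM. The lowest, cela1.1, cela1.2 and cela1.3, averaged 3.77 ± 1.32, 11.8 ± 5.36 and 10.3 ± 6.13 RPKM. The carboxypeptidase cpa5, which trims peptides from their end, went the other way, with 852, 927 and 971 RPKM. Islet hormones were far lower, with insulin (ins) at 67.3, 99.6 and 79.0 RPKM and the somatostatin sst2 at 30.4, 73.0 and 47.1 RPKM.

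Liver genes took 1.14%, 1.23% and 1.14% of counts and intestinal genes 0.657%, 0.745% and 0.684%. The liver list was led by apoa2, the liver fatty acid carrier fabp10a (1439.9, 1850.3 and 1481 RPKM), the retinol carrier rbp4 (651, 828 and 728 RPKM) and transferrin tfa (464, 464 and 554 RPKM), which moves iron in plasma. The intestinal list was led by apoa1a (1984, 2973 and 2949.8 RPKM), the fatty acid carrier fabp1b.1 (883, 1389 and 979.9 RPKM) and the ileal bile acid carrier fabp6 (548, 711 and 705 RPKM). Of the summed RPKM of 15 apolipoprotein genes, apoa2 took 29.8% ± 0.76, apoa1a 21.3% ± 3.3 and apoa1b 19.1% ± 2.21. The lipid-transfer apolipoprotein apoa4b.1 had 531, 612 and 556 RPKM, and apoa4a, its single-copy relative, 11.7, 12.3 and 8.22 RPKM. The 2 genes that share the symbol apoa4b.2 had 252, 341 and 219.9 RPKM and 64.4, 101 and 48.1 RPKM, a split that is uncertain.

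The eye gave 2 large lists. Lens genes took 1.70%, 1.52% and 1.74% of counts but 3.299% ± 0.203 of summed RPKM, with short transcripts for many crystallins, the proteins that keep the lens clear and refractive. All 21 gamma M2d crystallins were expressed, and they summed to 15439 ± 1052 RPKM. The highest were crygm2d8 (1573, 1454 and 1664 RPKM) and crygm2d13 (1476, 1454 and 1695 RPKM), which took 10.1% ± 0.21 and 9.98% ± 0.24 of the family. Next came the higher of both crygm2d17 entries (1020.3 ± 102 RPKM), crygm2d10 (956 ± 69.0 RPKM), crygm2d5 (918 ± 81.2 RPKM), crygm2d18 (894 ± 70.0 RPKM) and crygm2d20 (840.3 ± 65.8 RPKM), and the lowest were crygm2d2 (328 ± 28.3 RPKM) and crygm2d6 (231 ± 25.6 RPKM). Between these lay crygm2d3 (679 ± 52.3 RPKM), crygm2d12 (645 ± 46.1 RPKM), crygm2d11 (623 ± 35.8 RPKM), crygm2d4 (618 ± 6.66 RPKM), crygm2d21 (614 ± 92.6 RPKM), crygm2d16 (600.3 ± 61.7 RPKM), crygm2d7 (594 ± 66.7 RPKM). Below them came crygm2d14 (552 ± 33.97 RPKM), crygm2d15 (515 ± 3.71 RPKM), crygm2d1 (509.9 ± 50.1 RPKM) and crygm2d9 (463 ± 12.21 RPKM). The lower crygm2d17 entry averaged 735 ± 68.4 RPKM. Since these genes are tandem copies of similar sequence and crygm2d17 is listed for 2 of them, the division of reads among members is uncertain, whereas their sum is less so. Of 13 beta crystallins, 8 averaged over 500 RPKM, from crybb1 (1549, 1323 and 1343 RPKM) down to cryba2a (537, 499 and 552 RPKM), and cryba1a averaged 9.02 ± 1.21 RPKM. The gamma crystallins crygs3 and crygm6 were listed at 0.

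Photoreceptor genes took 0.818%, 0.730% and 1.06% of counts, highest in replicate 3. Rhodopsin (rho), the pigment of rods, had 1003, 853 and 1235 RPKM, and 8 cone opsins summed to 2644 ± 611 RPKM against 1031 ± 192 RPKM for rhodopsin. The ultraviolet opsin opn1sw1 had 815, 748 and 1139 RPKM, and the blue opsin opn1sw2 374, 347 and 518 RPKM. Among 4 green opsins, which lie in tandem, opn1mw1 had 591, 519 and 860.2 RPKM, opn1mw2 62.9, 35.9 and 45.4 RPKM and opn1mw3 0.0700, 0.120 and 0.0700 RPKM, and opn1mw4 was listed at 0. Of the pair of red opsins, opn1lw2 had 507, 577 and 775 RPKM and opn1lw1 6.53, 3.58 and 9.40 RPKM. The pineal opsin exorh had 3.74, 4.90 and 4.98 RPKM and rhol 3.49, 1.90 and 5.54 RPKM. Of the summed RPKM of 11 opsins, rho held 28.1% ± 1.5 and opn1sw1 24.4% ± 0.34. The share of opn1sw2 was 11.2% ± 0.08, below those of opn1mw1 and opn1lw2, whose RPKM was higher in every library.

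Neuronal genes took 0.969%, 0.925% and 1.00% of counts in 89 genes. They were led by the brain creatine kinase ckbb (645, 597 and 619 RPKM), the tubulin tuba1c (451, 393 and 382 RPKM) and pvalb7. Glial and myelin genes took 0.267% ± 0.0136, led by the radial glial lipid carrier fabp7a (330.5, 349 and 347 RPKM) and the glutamine synthetases glulb (283, 289 and 289 RPKM) and glula (197, 258 and 178 RPKM). Proliferating neural genes took 0.0997% ± 0.00227, led by the transcription factors sox11b (33.9 ± 2.23 RPKM) and sox11a (33.0 ± 2.53 RPKM).

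Connective tissue genes took 1.25%, 1.28% and 1.198% of counts, led by the matrix glycoprotein sparc (642, 688 and 683 RPKM) and the type I collagen chains col1a1a (588, 566 and 519.7 RPKM) and col1a1b (401, 408 and 359 RPKM). Cartilage and bone took 0.594% ± 0.0152, led by the cartilage collagen col2a1a (309, 286 and 302 RPKM), the matrix protein matn4 (138, 133 and 135 RPKM) and col10a1a (125, 118 and 138 RPKM). The bone gene bglap (osteocalcin) was listed at 0. Notochord genes took 0.0372% ± 0.00401, with vwde first (34.6, 44.5 and 38.2 RPKM).

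Erythroid genes took 0.212%, 0.151% and 0.244% of counts, lowest in replicate 2. The 10 embryonic globin genes summed to 5051, 3474 and 5865 RPKM, and the 5 adult globin genes to 1.49, 1.22 and 0.83 RPKM, from 7, 6 and 4 counts. The alpha-type chain hbae3 had 1063, 639.8 and 1186 RPKM, and the beta-type chain hbbe1.1, from the same locus, had 941, 579 and 1183 RPKM. The others above 100 RPKM were hbae1.3, listed for 2 genes (929 ± 204 and 621 ± 156 RPKM), hbbe1.3 (524 ± 154 RPKM), hbbe1.2 (446 ± 86.5 RPKM), hbbe2 (286 ± 48.1 RPKM) and hbae1.1 (121 ± 53.3 RPKM). The gene hbae5 had 3.09, 12.14 and 2.97 RPKM, and was the embryonic globin that was highest in replicate 2. Alpha-type chains summed to 2641 ± 648 RPKM and beta-type chains to 2157 ± 572 RPKM.

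The remaining lists each took less than 0.2% of counts. Pigment genes took 0.157% ± 0.00818, led by the purine enzyme paics (197, 134 and 221 RPKM) and the melanin enzyme tyrp1b (112, 146 and 136 RPKM). Leukocyte genes took 0.137% ± 0.0164, led by apoeb (752, 917 and 707 RPKM), which many other cells also express, and the lysozyme lyz (52.3, 58.6 and 44.3 RPKM). The T cell gene cd8a was listed at 0, but other lymphocyte genes of the list had counts. Among them were rag1 (130, 72 and 141 counts), lck (19, 9 and 15 counts) and cd4-1 (5, 2 and 3 counts). Smooth muscle and swim bladder took 0.0767% ± 0.00678, hair cells 0.0791% ± 0.00732, other retinal cells 0.0971% ± 0.0101, kidney 0.0652% ± 0.00420 and endothelium 0.0512% ± 0.00236. The hatching enzyme he1.1, which dissolves the egg envelope, had 43.1, 117 and 81.0 RPKM, and he1.3 was listed at 0. Pituitary and endocrine genes took 0.0107% ± 0.000541, with growth hormone (gh1) at 14.7, 11.7 and 16.03 RPKM.

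Germ cells and adult female products were near the floor. Germline genes took 0.00196% ± 0.000303 of counts, with the germ cell helicase ddx4 at 2.25, 2.21 and 1.78 RPKM and nanos2 listed at 0. The 7 vitellogenins, yolk precursors made by the adult female liver, summed to 0.32, 0.6 and 0.39 RPKM, and 22 egg-coat zona pellucida genes to 3.84 ± 0.614 RPKM. Of 94 trace amine receptor genes, 55 were listed at 0 and none reached 1 RPKM in all 3 libraries. Of 140 odorant receptor genes 1 did, or109-11 (1.23, 3.89 and 2.48 RPKM). Of 48 Hox genes, which pattern the body axis, 45 had at least 1 CPM in all 3 libraries, with hoxa4a highest at 27.1, 33.96 and 31.7 RPKM. That threshold is not the 1 RPKM used for the receptors, and some of the 45 were below 1 RPKM, such as hoxc11b (0.79, 1.23 and 0.85 RPKM). Among heat-shock genes the constitutive chaperones hspa8 (2429, 2329 and 2041 RPKM) and hsp90ab1 (1389.7, 1219 and 1337 RPKM) were abundant. The chaperones hsp90aa1.1 (42.1, 47.9 and 34.2 RPKM) and hsp90aa1.2 (47.1, 50.7 and 45.2 RPKM) were lower. So were the stress-inducible genes hsp70l (mean 14.9 ± 4.65 RPKM), hsp70.1 (4, 6.48 and 4.38 RPKM), hsp70.2 (11.7, 14.9 and 11.1 RPKM) and hsp70.3 (14.4, 12.3 and 9.43 RPKM).

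Paralogue usage was read from the ratio of a copy to b copy per length, as log2 of (RPKM + 0.1), in each library. Of 2726 symbol pairs with a summed level of at least 1 RPKM, 644 (23.6%) were skewed, meaning that the same copy was at least 4 times the other in all 3 libraries. Requiring the same description and different chromosomes left 2389 pairs, of which 576 (24.1%) were skewed, 327 toward the a copy and 249 toward the b copy. This smaller set, a rule added after seeing the data, is used below. The median pair differed 2.3-fold, 433 pairs stayed within 1.5-fold in every library, and 117 differed at least 16-fold. Both copies had at least 1 RPKM in all libraries in 1957 pairs, and in 8 pairs a copy was at 0. Ratios were steady, with a median SD over the libraries of 0.21 on the log2 scale.

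**Figure D4:**
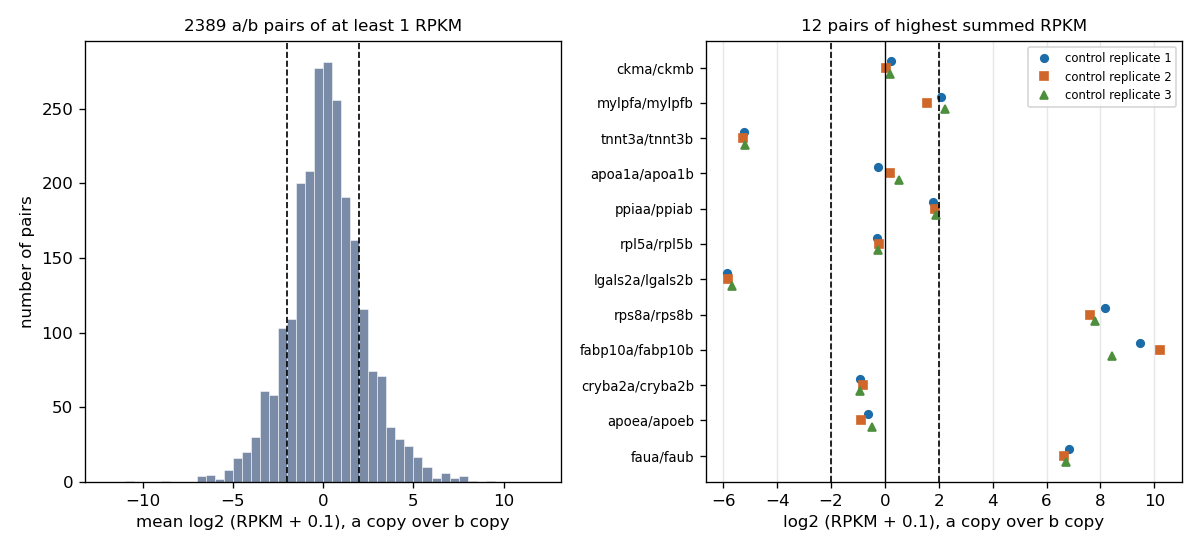
Left, number of pairs by mean log2 ratio of (RPKM + 0.1), a copy over b copy, for 2389 pairs; right, the same ratio in each control library for the 12 pairs of highest summed RPKM. Dashed lines mark a 4-fold difference; most pairs lie between them, while tnnt3a/tnnt3b and lgals2a/lgals2b lie far to the side of b and fabp10a/fabp10b and rps8a/rps8b far to the side of a.

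Some of the most abundant pairs were used together. The muscle creatine kinases ckma and ckmb differed by a log2 ratio of 0.15 ± 0.08, with 4441, 3598 and 3759 RPKM for ckma and 3816, 3457 and 3323 RPKM for ckmb. The ribosomal proteins rpl5a and rpl5b differed by -0.26 ± 0.03. The lipoprotein genes apoa1a and apoa1b differed by 0.15 ± 0.39, but the direction was not the same in every library, since apoa1a was the lower in replicate 1 and the higher in the other two. The ratio was -0.68 ± 0.21 for apoea and apoeb, lipoprotein components, and -0.89 ± 0.06 for the lens genes cryba2a and cryba2b. Close balance was also seen for the synaptic genes snap25a and snap25b (-0.06 ± 0.02) and the myelin genes mbpa and mbpb (-0.17 ± 0.09), both chosen after their values were seen.

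Others leaned moderately to 1 copy. The light chain mylpfa had a log2 ratio of 1.96 ± 0.35 over mylpfb (980.0, 1703 and 1144 RPKM). The cyclophilin ppiaa, which helps proteins fold, exceeded ppiab by 1.84 ± 0.04. Neither met the 4-fold rule in all libraries.

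In the remaining abundant pairs 1 copy carried nearly all of the expression. Fast troponin T used the b copy, with 132, 132 and 126 RPKM for tnnt3a and 4980.1, 5045 and 4626 RPKM for tnnt3b, a log2 ratio of -5.23 ± 0.03. The galactose-binding lectin lgals2b (1483, 1901 and 1707 RPKM) exceeded lgals2a, at a log2 ratio of -5.78 ± 0.09. The liver carrier fabp10a exceeded fabp10b (1.96, 1.45 and 4.21 RPKM) by 9.37 ± 0.90, although the short length of 186 bases that fabp10a was divided by raises its RPKM. The ribosomal gene rps8a (1696, 1621 and 1686 RPKM) exceeded rps8b (5.82, 8.10 and 7.56 RPKM) by 7.86 ± 0.28, and faua, a ubiquitin-like ribosomal fusion gene, exceeded faub by 6.74 ± 0.10.

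The most skewed pairs with a summed level of at least 20 RPKM covered varied functions. Cytochrome c, the electron carrier of the respiratory chain, came from cycsb (152, 211 and 173 RPKM), with cycsa listed at 0. The ubiquitin-like modifier sumo2b had 57.5, 57.4 and 54.7 RPKM and sumo2a 0.0400, 0.0600 and 0.0400 RPKM. The lens gene cryba1b had 1209, 993 and 1102 RPKM against 10.3, 7.86 and 8.91 RPKM for cryba1a, and akap1b, which anchors protein kinase A, had 21.5, 21.3 and 22.6 RPKM with akap1a at or below 0.2 RPKM. Toward a, complexin cplx4a, which clamps vesicle release at ribbon synapses, had 29.8, 24.3 and 36.0 RPKM with cplx4b at 0. The transcription factor subunit gtf2f2a had 22.6, 23.6 and 20.1 RPKM with gtf2f2b at 0. The basement membrane gene nid2a (36.2, 36.2 and 31.6 RPKM), the synaptic vesicle gene syngr1a (29.1, 31.2 and 36.7 RPKM), the matrix proteoglycan ogna (48.3, 44.2 and 45.2 RPKM) and the mRNA export gene chtopa (69.0, 66.0 and 70.9 RPKM) each had a b copy below 1 RPKM in every library. The water channel aqp3a had 146, 146 and 125 RPKM and aqp3b 1.07, 1.06 and 1.38 RPKM.

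By organ, skew was counted in the pairs of which either copy is on a list, with 24.1% as the share over all pairs. It was met by 7 of 13 fast-muscle pairs, 12 of 25 neuronal pairs, 7 of 17 photoreceptor pairs, 5 of 8 glial pairs, 4 of 9 connective tissue pairs, 3 of 8 pigment pairs, 2 of 11 pairs of cartilage and bone, 2 of 10 hair-cell pairs and 2 of 9 other retinal pairs. Organ lists with fewer than 8 pairs are left out. The lists name copies already known as markers, and these counts are small. In fast muscle 6 of the 7 favoured the b copy, among them acta1b over acta1a (-2.60 ± 0.16). In neurons 9 of 12 favoured the a copy, among them the vesicle calcium sensor syt1a over syt1b (5.51 ± 0.11), while the GABA-synthesizing enzyme gad1b exceeded gad1a (-4.87 ± 0.13). In photoreceptors the cone transducin subunit gnb3b exceeded gnb3a (-4.05 ± 0.29) and the cone kinase grk7a exceeded grk7b (4.12 ± 0.29). In glia fabp7a exceeded fabp7b (6.22 ± 0.18) and the glutamate transporter slc1a2b exceeded slc1a2a (-3.48 ± 0.31). The named organ pairs of this paragraph were chosen after their values were seen.

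The 3 control libraries were close to each other. Variation was measured in 13331 genes with a mean of at least 100 counts, as the coefficient of variation (CV, SD over mean) of CPM scaled by TMM, less the part that counting error gives. All CPM values from here on carry this TMM scaling. The median of this corrected CV was 5.82%, its 95th percentile 21.8%, and in 26.8% of genes the spread was within counting error. A corrected CV of at least 30% was found in 265 genes (1.99%), called variable here. Of these, 113 genes (0.848% of those measured) were highest in replicate 1, 95 (0.713%) in replicate 2 and 57 (0.428%) in replicate 3. Between any pair of libraries, 3.07% to 3.26% of genes differed by more than 1.5-fold. By the library that lay farthest from the others, 69 of the 265 genes were high in replicate 1, 55 high in replicate 2 and 30 high in replicate 3, and 29, 29 and 53 were low in replicates 1, 2 and 3. As shares of the 265 these were 26.0%, 20.8% and 11.3% high and 10.9%, 10.9% and 20% low. Over all measured genes the shares were 15.3%, 17.5% and 17.4% high and 17.2%, 16.3% and 16.3% low. Clone-based symbols made up 38.1% of variable genes and 10.4% of all genes measured.

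Among variable genes with an established symbol, plekhs1, a pleckstrin homology gene, had the largest corrected CV (84.6%), with 37.3, 16.9 and 4.45 CPM. The next were urgcp (49.7, 15.9 and 11.2 CPM), high in replicate 1, the lysosomal protease gene ctsba (11.2, 41.6 and 12.9 CPM), high in replicate 2, and the liver glucose sensor glucokinase gck (2.86, 18.7 and 9.34 CPM), low in replicate 1. The matrix protease mmp9, which neutrophils and injured skin release, had 16.3, 54.7 and 17.3 CPM, the granulin gene grn2 16.3, 5.11 and 5.18 CPM and the sulfotransferase sult5a1 16.7, 9.03 and 3.06 CPM. The lower of both actc1a entries had 7.22, 41.1 and 26.1 CPM, but its reads may be shared with other actins. The library that stood apart differed from gene to gene, and replicates have no order.

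The rest of the 25 most variable genes with an established symbol can be grouped by the library that stood apart. High in replicate 1 were the adhesion receptor adgrf8 (22.9, 10.4 and 6.56 CPM), the deubiquitinase cyldb (13.5, 5.18 and 5.62 CPM), the macrophage perforin mpeg1.2 (72.8, 37.0 and 24.2 CPM), the photoreceptor calcium sensor guca1c (27.6, 10.4 and 14.4 CPM), the histidine methyltransferase setd3 (99.1, 37.9 and 51.9 CPM), the ammonium transporter rhcga of ionocytes (92.8, 48.2 and 37.7 CPM) and the protocadherin pcdh2ac (29.8, 16.1 and 12.3 CPM). High in replicate 2 were fosl1a (6.39, 16.01 and 4.96 CPM), the Notch target her4.2 (9.48, 18.6 and 6.78 CPM) and the calpain capn3b (6.55, 17.1 and 8.82 CPM). High in replicate 3 were bahcc1b (84.9, 102 and 237 CPM), aep1 (42.4, 61.6 and 114 CPM) and the myosin heavy chain myha (10.53, 13.02 and 26.3 CPM). Low in replicate 3 were irg1l, noxo1a, a subunit of an oxidase that makes superoxide (21.7, 17.0 and 4.38 CPM), and cyp51, a sterol synthesis enzyme (39.9, 37.5 and 13.1 CPM). The rhodopsin-like gene rhol was low in replicate 2 (7.30, 3.92 and 11.3 CPM).

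Of genes of at least 50 CPM, 61 of 3351 (1.82%) were variable. Among those with an established symbol, the 10 of largest corrected CV were irg1l, bahcc1b, aep1, setd3, rhcga, fkbp5, fosab, tcima, pfkfb4b and hrc. Some genes with clone-based symbols had larger values than irg1l (66.5%), such as si:dkey-239b22.1 (79.5%) and the higher of both zgc:153932 entries (89.0%). The glucocorticoid-induced chaperone fkbp5 had 226, 111 and 105 CPM and the glycolytic regulator pfkfb4b 116, 58.5 and 53.7 CPM, both high in replicate 1. The genes tcima (42.1, 83.0 and 37.9 CPM) and hrc, a calcium-binding protein of the sarcoplasmic reticulum (51.5, 110.1 and 57.5 CPM), were high in replicate 2.

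Variable genes fell unevenly over the lists, against 1.99% of all genes. They made up 9 of 34 measured genes of the immediate-early list, 8 of 26 of the exocrine pancreas, 4 of 18 leukocyte genes, 6 of 39 genes of the clock list, 6 of 42 photoreceptor genes and 3 of 23 erythroid genes. In 15 of 36 lists of at least 10 measured genes, with 544 genes in all, none was variable, among them neurons (76 genes), lens (45), liver (45), the cell cycle (36) and ribosomal proteins (78). Genes of a list are not independent. The lists were also chosen with earlier results of these data known, so these counts only describe 3 libraries.

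Immediate-early genes, the transcription factors and signal genes that cells switch on within minutes of a stimulus, had 9 variable members, of which 8 were highest in replicate 2. The activator protein gene fosab had 95.4, 206 and 101 CPM, junbb 82.5, 169 and 84.7 CPM, junba 42.9, 72.7 and 30.8 CPM and the zinc-finger gene egr1 207, 347 and 199.6 CPM. The antiproliferative gene btg2 had 81.1, 160.1 and 99.5 CPM, the stress factor atf3 17.5, 25.5 and 13.3 CPM and the matrix signal ccn1 36.2, 62.0 and 38.9 CPM. The other variable member, the orphan receptor nr4a3, was highest in replicate 1 (20.8, 16.01 and 10.6 CPM). Of 34 measured genes of the list, 22 were highest in replicate 2, against 34% of all 13331 genes, and 10 in replicate 1 and 2 in replicate 3. Among the 22 is c7a, a complement gene on the list that is not known as an immediate-early gene (11.2, 13.02 and 10.9 CPM). Those highest in replicate 1 included mych (247, 177 and 187 CPM), a member of the Myc family, the endothelial factor klf2a (124, 78.8 and 109.8 CPM), nr4a1 (50.5, 43.8 and 36.0 CPM) and the neurotrophin bdnf (14.4, 8.37 and 10.502 CPM).

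All 6 variable clock genes were highest in replicate 1. The repressors nr1d1 and nr1d2a had 447, 268 and 250.3 CPM and 339, 173 and 186 CPM, and the glucocorticoid- and clock-regulated factor klf9 had 166, 84.4 and 82.8 CPM. The D-box repressor nfil3-6 had 38.6, 19.5 and 20.9 CPM, lonrf1l 29.8, 16.9 and 15.9 CPM and the light-induced cryptochrome cry1a 64.2, 49.5 and 33.2 CPM. Of 39 measured genes of the clock list, 30 were highest in replicate 1, against 31.2% of all genes. Among the 30 is tjp3, a tight junction gene on the list that is not known as a clock gene (61.2, 57.4 and 56.8 CPM). The activator genes arntl1a (22.0, 22.1 and 28.2 CPM), arntl1b (13.99, 16.9 and 18.8 CPM) and arntl2 (8.20, 7.90 and 11.2 CPM) were highest in replicate 3, as were cry3a (226, 200.0 and 261 CPM) and rorcb (34.7, 27.0 and 44.7 CPM), and none of these reached a corrected CV of 30%. The period genes per1b (208, 144 and 122 CPM, corrected CV 28.4%) and per1a (118, 78.6 and 79.6 CPM, 24.4%) had the same order at the top without reaching 30%. The labels give no time of day for sampling, and its part in these differences was not tested.

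Most measured genes of the exocrine pancreas, photoreceptors, lens and erythroid cells were lowest in replicate 2. In the pancreas the elastase ela2 had 968, 488 and 801 CPM, the amylase amy2a 425, 212 and 358 CPM, the bile salt lipases cel.1 and cel.2 329, 169 and 244 CPM and 218, 115 and 136 CPM, and the carboxypeptidase cpa1 62.9, 30.6 and 35.7 CPM. Of 26 measured pancreatic genes, 21 were lowest in replicate 2, and 23 were highest in replicate 1. Of 42 photoreceptor genes, 36 were lowest in replicate 2 and 33 highest in replicate 3, among them the rod transducin subunits gnat1 (65.3, 57.3 and 112 CPM) and gngt1 (36.6, 29.8 and 57.2 CPM). Of 45 lens genes 37 were lowest in replicate 2, and of 23 erythroid genes 17 were, among them hbbe1.1 (319, 191 and 391.6 CPM), the red cell anion exchanger slc4a1a (79.2, 49.0 and 86.7 CPM) and the haem enzyme alas2 (41.2, 25.2 and 41.7 CPM). Over all genes, 32.3% were lowest in replicate 2, and 31.2%, 34% and 34.8% were highest in replicates 1, 2 and 3. The intestinal and liver lists did not share the low values in replicate 2. They had 6 of 42 and 11 of 45 genes lowest in replicate 2 and 23 and 22 highest there. Replicate 2 was also the deepest library, and the part of depth or handling in these shifts was not tested.

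**Figure D5:**
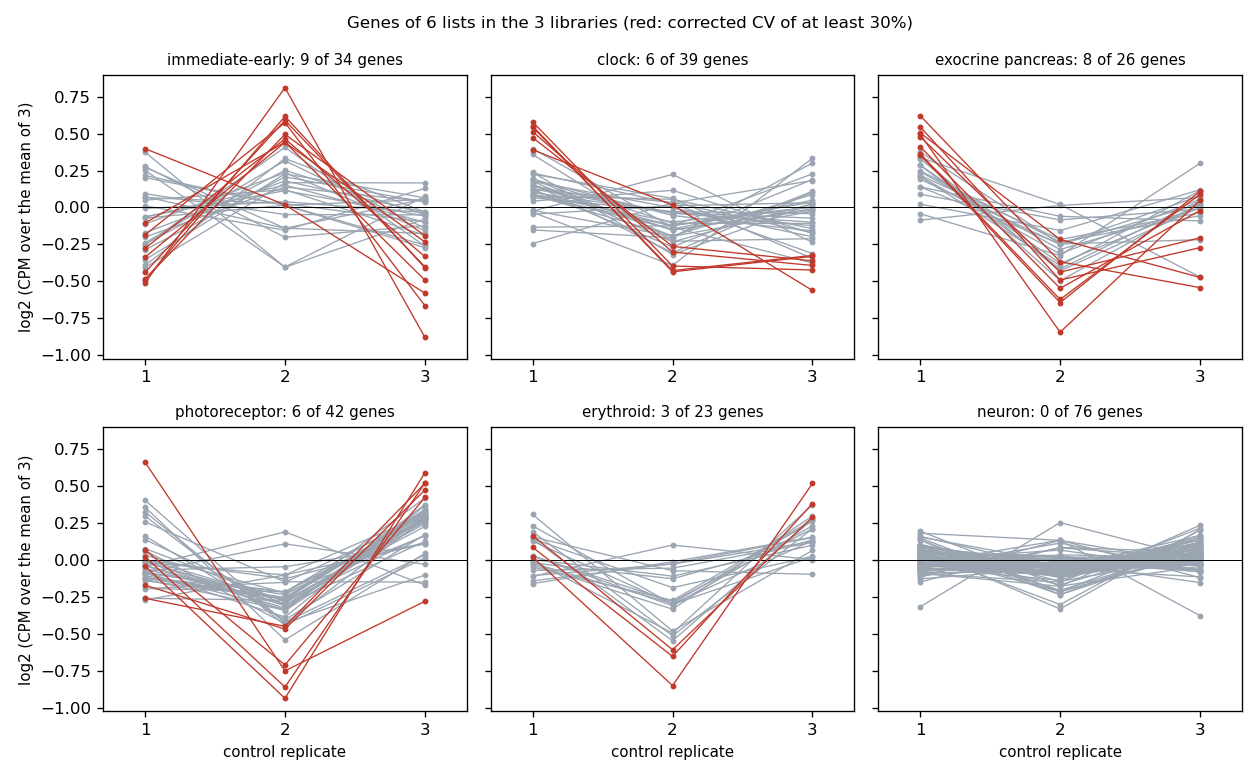
For 6 gene lists, the log2 ratio of TMM-scaled CPM to the gene's mean over the 3 control libraries, with 1 line per gene of at least 100 counts, in red where the corrected CV reaches 30%; lines only join the points of a gene. Of the genes in red, 8 of 9 immediate-early genes are highest in replicate 2 and all 6 clock genes in replicate 1, and other members of these lists go other ways. In replicate 2, 21 of 26 pancreatic, 36 of 42 photoreceptor and 17 of 23 erythroid genes are lowest, against 32.3% of all genes. No neuronal gene reaches 30%.

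The remaining state lists had 0 to 2 variable genes each, with 1.99% as the share over all genes. Heat-shock genes had 1 variable member of 26, hsp70l (21.0, 39.7 and 30.8 CPM), with hspb9 (7.45, 11.03 and 13.3 CPM), hsp70.1 (8.28, 13.22 and 8.82 CPM) and serpinh1b (44.2, 70.27 and 63.5 CPM) next. Fasting and metabolic genes had 2 of 42, gck and fkbp5, with cyp24a1 (10.16, 15.5 and 19.3 CPM), which degrades vitamin D, and igfbp1b (5.04, 9.23 and 8.31 CPM), which binds insulin-like growth factors, just below the threshold. Immune response genes had 1 of 15, irg1l, with ptgs2a (22.2, 38.3 and 31.9 CPM), mhc1zba (78.2, 56.7 and 48.5 CPM) and crp3 (14.97, 23.9 and 20.9 CPM) next. In the cell cycle list, with 0 of 36, the largest values belonged to tyms (24.2%), dut (17.9%), mcm7 (16.7%) and the lower of both rrm2 entries (12.18%), genes of DNA synthesis.

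Variable genes also lay beside each other. Of the 265, 63 (23.8%) had a variable gene as the nearest measured gene on either side on the chromosome, against 3.79% of all measured genes. Some neighbours were genes of like name, such as cel.1 and cel.2 or he1.1 and he1.2, between which reads may be shared. The longest run, on chromosome 14 from 11427052 to 11507426, held 5 genes, and all 5 measured genes of that stretch were low in replicate 3. The itaconate enzyme gene irg1l, expressed in inflamed skin, had 156, 118 and 26.4 CPM, and its neighbour si:ch211-153b23.3 had 97.7, 86.1 and 15.8 CPM. The next were si:ch211-153b23.5 (102, 94.9 and 33.0 CPM), si:ch211-153b23.4 (53.9, 49.4 and 17.4 CPM) and zgc:174917 (15.4, 17.2 and 3.65 CPM). The 2 measured genes listed before the run were not low in replicate 3 to that extent, with 47.4, 50.7 and 50.03 CPM for the ubiquitin ligase rlim and 11.6, 11.8 and 9.70 CPM for glod5. The globin locus on chromosome 3, from 55114097 to 55147788, held 3 variable genes of 7 measured, against 1.99% of all genes. These 3, hbbe1.1, hbae1.1 and hbae3, were all low in replicate 2. The other measured globins of the locus were also lowest in replicate 2, with hbbe1.3 just below the threshold at a corrected CV of 29.2%.

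The end of chromosome 12, a window chosen after its values were seen, held 12 variable genes of 73 measured from position 38000000 on. That was 16.4%, against 1.99% of all genes. Of these 12, 9 had replicate 1 highest and replicate 3 lowest with replicate 2 between, an order held by 29.4% of all variable genes. The clone-named gene si:dkey-239b22.1 had 283, 111 and 54.3 CPM. The 2 genes named zgc:153932 had 124, 44.4 and 17.7 CPM and 77.3, 30.02 and 9.92 CPM, a split that is uncertain as they share a symbol. The cytoskeletal linker vclb, also in the window, had 34.5, 37.5 and 18.7 CPM. Chromosome 22 had the highest share of variable genes (4.11% of 414 genes), followed by chromosome 12 (3.84% of 495), and chromosome 18 the lowest (0.716% of 419).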

How the data were processed

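RNA was sequenced from whole larvae, and 3 untreated libraries were used. The deposited table holds the authors' estimated counts per gene and their RPKM values, per the file headers. No source used here names an aligner, a counter or a genome build. The 39 other per-sample columns were not used.

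CPM was computed from each library's total, and for variation also with TMM factors (edgeR 4.0.16, R 4.3.3). Effective length was taken as the length that turns the deposited counts into the deposited RPKM, and it is short for small genes. It differed between libraries by 5% or more in 19.3% of genes with a mean of over 1000 counts. A difference in RPKM between libraries can therefore include a difference in length. The corrected CV is the CV of TMM-scaled CPM with the expected Poisson part removed, for genes with a mean of at least 100 counts, and genes of at least 30% were called variable. Scripts were tested on simulated data.

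The 28 organ lists and 6 state lists were chosen with earlier results of these data known, as were the libraries and the pair rule, and 94.2% of 1233 listed symbols were found. Genes were named by rank: the 20 highest by RPKM, the 10 highest by CPM and some of the 3 highest of most organ lists. Also named were members of chosen families, the 12 highest and 10 most skewed pairs and the 25 most variable genes with an established symbol. Some were added after their values were seen. With 1 group no test was made. Alternatives were other denominators, pseudocounts, filters, DESeq2 1.42.0 size factors, edgeR dispersions and leaving out each library. The stricter pair rule, a minimum effective length and the removal of clone-based symbols were chosen after seeing the data.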

Additional observations from a re-analysis of the deposited data

How the results depend on the processing

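Of 66 alternative values, 51 stayed close to the reported one. Close meant within 1 SD over the 3 libraries for shares of counts, and within 1.5-fold for numbers of genes or pairs. Leaving out 1 of 3 libraries cannot move a mean share by 1 SD. Those shares were therefore bound to stay close, and the count of 51 includes them. With the mitochondrial genome left out of the denominator, fast muscle took 13.9%, ribosomal proteins 6.02%, liver 1.22% and neurons 1.01% of counts. As a percent of summed RPKM, ribosomal proteins took 15.6%, the mitochondrial genome 9.32%, lens 3.299%, exocrine pancreas 2.84% and neurons 0.646%. The mitochondrial value is raised by mt-atp8, whose RPKM rests on a length of 2.78 bases. On the scale of RPKM 144 genes held 50% of the total, against 537 by mean counts. The number of variable genes depended most on the settings. It was 265 as reported, 904 from 20 counts on, 3006 with no filter beyond 1 count, 873 at a CV of at least 20%, 49 by the edgeR dispersion and 164 without clone-based symbols, a choice added after seeing the data. Leaving out each library in turn gave 303 to 361 variable genes, 694 to 697 skewed pairs among all symbol pairs, and 19398 to 19445 detected genes. A CV over fewer libraries scatters more at the same threshold, and skew and detection are asked of fewer libraries. These numbers therefore lean upward and are not a check on the reported ones. No paired analysis was possible because the results come from no test and from 1 group. Precision is limited by 3 libraries whose independence is not stated, and by counting error in genes of few counts.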
